A study of Mus musculus with 48 samples.

Results

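Serpins form a large superfamily of proteins, most of which block proteases by a suicide mechanism. The target protease cuts an exposed reactive loop near the end of the serpin, the loop inserts into a sheet of the serpin, and the protease is trapped as a covalent complex. Hepatocytes secrete many serpins of plasma, among them antitrypsin, antithrombin, antiplasmin, heparin cofactor II and C1 inhibitor, whereas the clade B serpins stay inside cells. Some members inhibit no protease and instead carry hormones or fold collagen.

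Here 50 protein-coding mouse genes of the 9 serpin clades A to I are described across 48 livers. They are the genes annotated as protein-coding whose symbol is Serpin followed by a clade letter from a to i and a number, out of 17455 protein-coding genes and 29221 genes in all in the joined tables. Clade A had 24 members, clade B 16, clade E 3, clade F 2, and clades C, D, G, H and I had 1 each. A further 7 genes named Serpin had another biotype and were left out. Of the members, 23 lie on chromosome 12, 12 on chromosome 13 and 6 on chromosome 1.

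RNA came from whole livers of mice that all carried a floxed Pparg gene, which encodes the nuclear receptor PPARγ. After 16 weeks on diet, the mice received an AAV8 vector with the TBG promoter, which is active in hepatocytes. The vector carried Cre in the labelled knockouts (KO) and no transgene (AAV8-TBG-null) in the controls (C), so that virus and floxed allele were common to all groups and deletion was aimed at hepatocytes only. Low fat (LF) and high fat (HF) diets were fed for 34 weeks, and the HFCF groups received the HF diet for 18 weeks and then, for 16 weeks, a diet rich in fat, cholesterol and fructose. Males were studied on HF and HFCF (n = 6 livers per group) and females on LF, HF and HFCF (n = 4 per group). The labels identify each library by its own mouse.

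Libraries held 15338239 to 22072884 reads on genes. Pparg did not have a lower mean in any labelled-knockout group, and its mean was higher there than in the matching controls each time. It measured 10.5 ± 3.29 CPM (SD) in LF control females and 15.6 ± 5.48 in LF labelled knockouts, 18.6 ± 4.19 and 28.8 ± 8.13 in HF females, and 23.7 ± 1.34 and 46.0 ± 9.20 in HFCF females. In males it measured 34.3 ± 3.95 and 41.2 ± 14.1 on HF and 32.0 ± 5.59 and 55.9 ± 6.05 on HFCF. Counts over the whole gene include exons outside a deleted part, so that this check does not show whether the deletion took place. Hepatocyte markers were the highest of the marker lists in every library. HFCF control male replicate 1 resembled the HF males in hepatocyte, biliary and macrophage markers, HF control female replicate 1 had the highest biliary and stellate marker sums of its group, and HFCF labelled-knockout female replicate 1 had the lowest mean correlation with its own group. The results that rest on these 3 livers are given with and without them. In HF labelled-knockout females, replicate 3 had a neutrophil marker sum of 143 CPM, against 1.83 to 2.91 CPM in the others. It also had the highest macrophage marker sum (846 CPM) and the lowest mean correlation of its group.

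The Serpina1 genes, the mouse copies of antitrypsin (an inhibitor of neutrophil elastase), include the most abundant members and are near-identical copies that differ in the reactive loop, so their loops are shown first. Each line gives 66 bases of the last exon on the gene's own strand, which is the minus strand of chromosome 12 (GRCm38, transcripts of GENCODE M21), starting at the hinge of the loop. Capitals mark the bases that differ from Serpina1a.
Serpina1a, chr12:103853765-103853830: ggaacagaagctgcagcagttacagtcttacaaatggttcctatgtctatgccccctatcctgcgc
Serpina1b, chr12:103728332-103728397: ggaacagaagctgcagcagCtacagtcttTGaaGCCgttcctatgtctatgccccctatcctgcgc
Serpina1c, chr12:103895102-103895167: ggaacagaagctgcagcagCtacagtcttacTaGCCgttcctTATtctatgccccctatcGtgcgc
Serpina1d, chr12:103763770-103763835: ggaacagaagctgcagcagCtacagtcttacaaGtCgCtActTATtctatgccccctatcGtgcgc
Serpina1e, chr12:103947108-103947173: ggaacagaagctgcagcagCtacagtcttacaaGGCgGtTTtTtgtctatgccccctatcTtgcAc
The 4 other loops differ from that of Serpina1a at 6 (Serpina1b), 9 (Serpina1c), 9 (Serpina1d) and 10 (Serpina1e) bases, while any pair of the 5 coding sequences is 96.3% to 98.5% identical over 1239 bases.

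The antichymotrypsin-like Serpina3 genes on the same chromosome are further apart. The loops of the 3 abundant copies, on the plus strand and with capitals for differences from Serpina3k, read as follows.
Serpina3k, chr12:104345269-104345334: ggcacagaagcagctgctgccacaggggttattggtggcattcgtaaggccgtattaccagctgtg
Serpina3m, chr12:104393769-104393834: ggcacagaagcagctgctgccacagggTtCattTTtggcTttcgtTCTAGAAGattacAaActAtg
Serpina3n, chr12:104413448-104413513: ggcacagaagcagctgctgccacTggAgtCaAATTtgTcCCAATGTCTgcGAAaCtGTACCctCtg
Serpina3m differs from Serpina3k at 16 and Serpina3n at 27 of the 66 bases, with coding identities of 91.8% and 83.5%. Such likeness bears on the counts, because how reads that match several genes were handled is not given in the sources used here. Of all stretches of 100 bases in the transcripts, 69.3% of those of Serpina1c, 42.8% of Serpina1a, 29.3% of Serpina1d, 14.8% of Serpina1b and 14.4% of Serpina1e occur identically in another gene, against 4.9% for Serpina3k and 6.1% for Serpina3m. Values of the single Serpina1 copies, and of Serpina11, which shares 32.8% of its stretches with the predicted gene Gm28577, are therefore uncertain. The same holds where annotations overlap on the same strand: Serpina1b with Serpina1d (both minus) and Serpina3m with Serpina3k (both plus). Since the libraries were not strand specific, it also holds for overlaps with other genes on either strand. These include Serpina1c with B430119L08Rik, Serpinb6a with Ripk1, Nqo2 and 1110046J04Rik, Serpinc1 with Zbtb37, and Serpind1 with Pi4ka. Predicted genes overlap too, such as Gm8893 with Serpina1b, Gm37729 with Serpinc1 and Gm24927 with Serpind1, as does the pseudogene Serpina3l-ps with Serpina3m.

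Before the RefSeq starts of the Serpina1 genes a shared sequence carries the half-site of HNF1 factors, liver transcription factors. It is shown for Serpina1d and Serpina1e, beside Serpina1a as the reference. Serpina1d was the copy with the highest mean CPM per kb over the 10 groups, and Serpina1e the copy whose levels differed most between groups. In CPM not scaled to length, Serpina1b was higher than Serpina1d (3335 against 2013 on average over the groups). The lines give 95 bases on the gene's strand (RefSeq, GRCm38.p6), with capitals for differences from Serpina1a and the half-site gttaat near the end of each line.
Serpina1a, chr12:103863626-103863720: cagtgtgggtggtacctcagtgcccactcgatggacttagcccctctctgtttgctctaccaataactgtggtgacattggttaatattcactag
Serpina1d, chr12:103773635-103773729: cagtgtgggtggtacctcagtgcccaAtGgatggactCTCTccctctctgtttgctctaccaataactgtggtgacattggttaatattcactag
Serpina1e, chr12:103956961-103957055: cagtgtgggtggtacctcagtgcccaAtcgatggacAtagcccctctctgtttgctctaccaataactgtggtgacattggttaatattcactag
Serpina1e differs from Serpina1a at 2 bases here and Serpina1d at 6. The half-site starts 78 bases before the RefSeq start of Serpina1e, 21 before that of Serpina1a and 16 before that of Serpina1d. The starts of Serpina1e differ between annotations: in the deposited coordinates this minus-strand gene spans 103946931 to 103958975, so that its window lies inside the gene, while those of Serpina1a and Serpina1d lie before it. The letters GTTAAT, searched on both strands, occur in the 300-base promoter windows of 8 of the 42 members with a RefSeq entry (the 5 Serpina1 genes, Serpina3c, Serpina7 and Serpinb8) and in 7.2% of all 27025 windows.

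Of the 50 members, 29 had enough reads to be tested in at least 1 comparison. The other 21 (9 of clade A, 11 of clade B and Serpine3) had 2 to 238 reads over the 48 libraries and at most 0.452 CPM in any group mean. Per length, as mean CPM per kb over the 10 groups, the order began with Serpina1d (1444), Serpina1b (1381), Serpina3k (1098), Serpina1a (701.6) and Serpina1c (422.4). Then came Serping1, C1 inhibitor (329.2), Serpinf2, the plasmin inhibitor α2-antiplasmin (324.7), the acute-phase inhibitor Serpina3n (256.8), Serpina6, the corticosteroid carrier (251.8), and Serpinc1, antithrombin (245.2). Serpinf1, the non-inhibitory PEDF, had 220.1, Serpina3m 218.2 and Serpind1, the thrombin inhibitor heparin cofactor II, 216.3.
A second tier on the same scale held Serpina10, which inhibits coagulation factor Xa with protein Z (61.45), Serpina1e (45.97), Serpina7, the thyroxine carrier (43.18), Serpina11 (20.31), Serpinh1, the collagen chaperone HSP47 (16.51), and Serpina12, vaspin (16.06). The lowest tested members were Serpina3g (7.909), the leukocyte elastase inhibitor Serpinb1a (5.827), Serpinb6a (4.09), the granzyme B inhibitor Serpinb9 (4.089), Serpinb8 (2.872), Serpinb6b (2.342) and Serpina3f (2.0). Below them were Serpine2, protease nexin-1 (1.001) and Serpini1, neuroserpin (0.104). The heat map of mean levels gives the same order by clade and group.

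**Figure D1:**
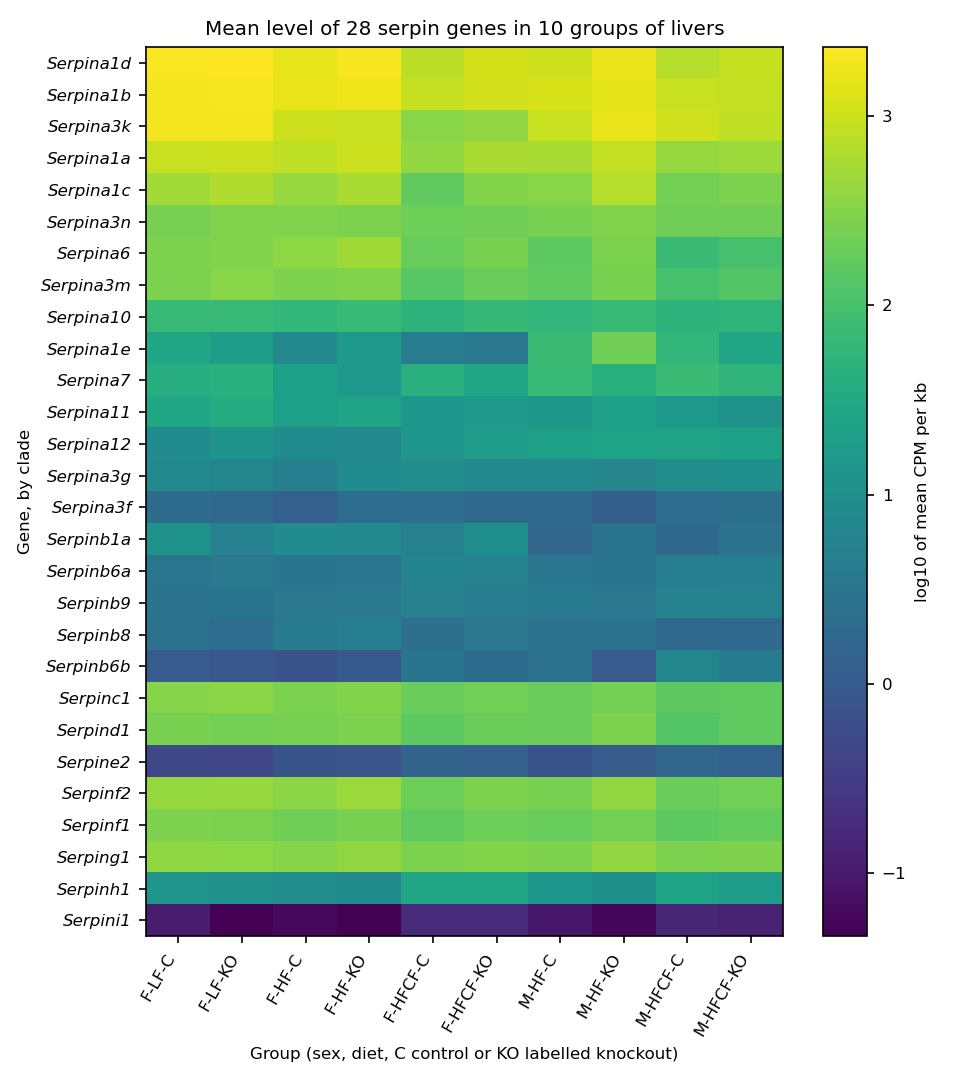
Mean level of 28 tested serpin genes (CPM per kb, log10 colour scale) in each of the 10 groups of 4 or 6 livers, arranged by clade. Genes of clades A, C, D, F and G fill the 17 highest places, though some of clade A (Serpina12, Serpina3g and Serpina3f) lie lower, and Serpini1, at 0.104 CPM per kb over all groups, is the least abundant.

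Summed over all 50 members, serpin transcripts made up 2.20% of the scaled reads in LF control females, 1.75% in HF control females and 0.993% in HFCF control females. In males the sum was 1.35% in HF controls, 1.96% in HF labelled knockouts, 1.11% in HFCF controls and 1.12% in HFCF labelled knockouts. Serpina1a to Serpina1e together had mean sums from 4134 CPM (HFCF control females) to 10717 CPM (LF labelled-knockout females). Because the libraries are bulk liver, fewer hepatocytes and less serpin RNA per hepatocyte cannot be told apart in any of the comparisons that follow.

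On the HF diet, labelled-knockout males had higher levels of most secreted serpins than control males and lower levels of Serpinb6b, Serpina7 and Serpina3f. Of 28 members tested, 16 were higher and 4 lower (edgeR quasi-likelihood test, Benjamini-Hochberg adjusted p under 0.05), or 20 in all, where 18.5% of all genes tested were called, 8.57% higher and 9.88% lower. The higher ones were 10 of 15 in clade A, all 5 in clades C, D, F and G, and Serpinb1a. The median log2 fold change was 0.35 over the members and 0.00 over all genes. The pattern is seen in the plot of log2 fold changes in males.

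**Figure D2:**
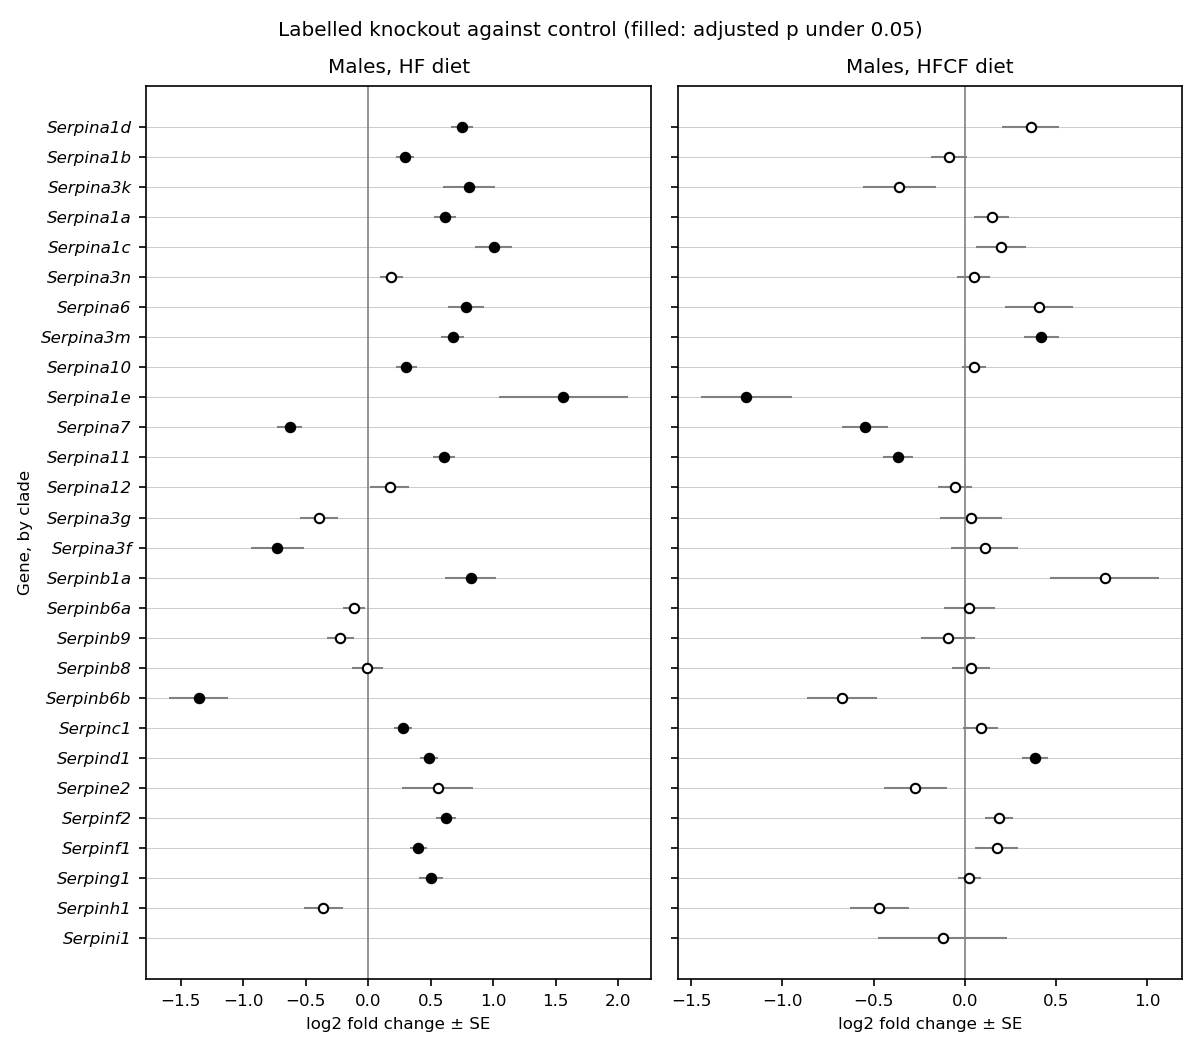
Log2 fold change (labelled knockout over control, with its SE) of 28 serpin genes, where tested, in HF and HFCF males, 6 livers per group. Most secreted serpins lie above 0 on the HF diet, where Serpina1e has the highest value (1.56), and Serpinb6b (-1.36) the lowest.

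Serpina1d ran from 1197 over a median of 1408 to 1761 CPM in the HF control males and from 2035 over 2462 to 2553 CPM in the labelled knockouts. The groups did not overlap, and the log2 fold change was 0.75 ± 0.09 (SE; adjusted p = 4.04e-05). Serpina1c went from 357 to 582 CPM (median 439.5) in controls and from 639 to 1162 CPM (median 927) in labelled knockouts, again without overlap (1.003 ± 0.148, adjusted p = 0.000247). Serpina1a (0.61 ± 0.09) was likewise higher in every labelled knockout than in any control, at 1453 to 1840 CPM (median 1525) against 884 to 1203 CPM (median 992). Serpina1b rose less (0.30 ± 0.07).
Serpina1e stood apart by its spread. Its values were 38.7 to 244 CPM (median 114) in controls and 93.1 to 1086 CPM (median 246) in labelled knockouts, and the groups overlapped. The log2 fold change of 1.56 ± 0.52 had an adjusted p of 0.0456, and the call was absent with DESeq2's Wald test (0.0514). Without labelled-knockout replicate 6, the library at 1086 CPM, the log2 fold change was 0.79 (adjusted p = 0.145), and the call was kept in 4 of 12 fits with 1 liver removed.
Serpina3k overlapped between the groups too, with 1399 to 2230 CPM (median 2085) in controls and 2139 to 6306 CPM (median 3002) in labelled knockouts (0.80 ± 0.21, adjusted p = 0.0138). Its neighbour Serpina3m did not overlap (251 to 351 CPM, median 279.6, against 393.5 to 554 CPM, median 462; 0.68 ± 0.09), and Serpina11 rose by 0.61 ± 0.09 on the log2 scale.

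The hormone carriers moved in opposite directions in the HF males. Serpina6 had 223 to 371 CPM (median 275) in controls and 305 to 617 CPM (median 492) in labelled knockouts, with overlap (0.78 ± 0.15, adjusted p = 0.00156). Serpina7 had 132 to 201 CPM (median 163) in controls and 84.2 to 119 CPM (median 112) in labelled knockouts, without overlap (-0.63 ± 0.10, adjusted p = 0.000476). In the list of genes for hormones and receptors related to these carriers, 6 of 12 were higher, among them Hsd11b1, which regenerates active glucocorticoid (0.61), and 1 was lower, Dio1, a deiodinase of thyroid hormone (-0.55).

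Among inhibitors of clotting and fibrinolysis, Serpinf2 ran from 481 to 683 CPM (median 601) in HF control males and from 864 to 1015 CPM (median 912) in labelled knockouts, without overlap (0.62 ± 0.08, adjusted p = 8.48e-05). Serpind1 also did not overlap (410.0 to 503 CPM, median 424, against 543 to 693.5 CPM, median 626.5; 0.48 ± 0.07). Serpinc1 overlapped, at 1501 to 1951 CPM (median 1681) and 1857 to 2172 CPM (median 2070.0; 0.28 ± 0.07). Serpina10, the inhibitor of factor Xa, had a log2 fold change of 0.30 ± 0.08, close to that of antithrombin.
Serping1, which blocks the first complement proteases, was higher in every labelled knockout (818 to 1102 CPM, median 933) than in any control (566 to 803 CPM, median 622.5; 0.50 ± 0.09). Serpinf1 rose as well (0.40 ± 0.07).

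Of the intracellular clade B, Serpinb6b had 3.41 to 8.42 CPM (median 5.47) in controls and 1.45 to 3.11 CPM (median 2.24) in labelled knockouts, without overlap (-1.36 ± 0.23, adjusted p = 0.000828). Serpinb1a had 2.93 to 4.99 CPM (median 3.69) and 4.74 to 10.8 CPM (median 5.88), with overlap (0.82 ± 0.20, adjusted p = 0.0111). Serpina3f, a copy in the Serpina3 cluster, had 3.5 to 5.76 CPM (median 4.84) in controls and 1.66 to 4.55 CPM (median 2.81) in labelled knockouts, also with overlap (-0.73 ± 0.21, adjusted p = 0.0255). The 8 tested members without a call were Serpina3n, Serpina3g, Serpina12, Serpinb6a, Serpinb8, Serpinb9, Serpine2 and Serpinh1, with log2 fold changes from -0.39 (Serpina3g) to 0.55 (Serpine2).

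Hepatocyte markers moved with the secreted serpins. In HF males 6 of 8 were higher and 0 lower in the labelled knockouts, and their summed level was 61986 to 85486 CPM in controls and 89784 to 103997 CPM in labelled knockouts. Of the stellate and fibroblast markers, 4 of 7 tested were lower (sums of 408 to 593 and 307 to 428 CPM), and of the collagens and partners of Serpinh1, 13 of 19 were lower and 0 higher, with a median log2 fold change of -0.66. Macrophage markers had 1 higher and 2 lower of 10 (242 to 479 and 364.5 to 539 CPM), and each marker of these 3 cell lists had reads. Blood markers had 3 of 5 higher (median log2 fold change 1.48), with sums of 165 to 247 CPM in controls and 804, 616 and 815 CPM in labelled-knockout replicates 3, 4 and 5, against 164 to 186 CPM in the other 3. Their part in the serpin differences was not tested.

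On the HFCF diet, fewer serpins differed between labelled-knockout and control males. The call went to 5 of 29 members, 2 higher and 3 lower, where 2.21% of all genes were called, 0.933% higher and 1.27% lower, with a median log2 fold change of 0.04 over the members and -0.01 over all genes. Heparin cofactor II, Serpind1, had 241 to 333 CPM (median 277) in controls and 340 to 402 CPM (median 363) in labelled knockouts, without overlap (0.39 ± 0.07, adjusted p = 0.0116). Serpina3m was higher as well (0.42 ± 0.09), with 127 to 213 CPM (median 168) and 212 to 239 CPM (median 223). Serpina7 was lower, with 123 to 231 CPM (median 185) in controls and 109 to 142 CPM (median 128) in labelled knockouts, with overlap (-0.55 ± 0.12). With 1 liver removed, the call was kept in 12 of 12 fits for Serpind1, 4 for Serpina3m and 3 for Serpina7.
Serpina1e, which overlapped, had 55.9 to 166 CPM (median 88.4) in HFCF controls and 23.4 to 65.6 CPM (median 42.9) in labelled knockouts, a log2 fold change of -1.20 ± 0.25 (adjusted p = 0.0219). Serpina11 had 23.1 to 27.2 CPM (median 24.7) and 16.5 to 21.9 CPM (median 19.7), without overlap (-0.37 ± 0.08). The number of members called rested on single libraries: it was 12, with these 5 among them, without control replicate 1, and 1 without control replicate 6 or without labelled-knockout replicate 1. The share of all genes called in such fits is not given here, so these counts show only how far the calls depended on single livers. Control replicate 1 had the highest Serpina1d (1581 CPM, next 973) and Serpina3k (3963 CPM, next 2239) of its group. Hepatocyte markers had 0 of 8 called here, with sums of 38744 to 63402 CPM in controls and 53796 to 65241 CPM in labelled knockouts.

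The difference between the labelled-knockout effects on the 2 diets was tested as an interaction in the 4 male groups. It was called for 5 of 29 members, all 5 more negative on HFCF, where 1.56% of all genes were called, 0.570% in that direction. For Serpina1e the difference was -2.78 ± 0.63 (SE, log2; adjusted p = 0.0255), and for Serpina11 -0.99 ± 0.12 (adjusted p = 0.000105). Both kept the call in all 24 fits that left out a library, although the value for Serpina1e was -2.01 without HF labelled-knockout replicate 6. The Serpina1e call was lost with the replicate number as a block. For Serpina1c (-0.82 ± 0.21, adjusted p = 0.0477), Serping1 (-0.50 ± 0.12, 0.0279) and Serpinf2 (-0.45 ± 0.11, 0.0334) the call depended on the libraries included, and the number of members called ran from 2 to 7 over those fits, with 4 in the fit without HFCF control replicate 1. Serpina1e and Serpina11 were both called higher on HF and lower on HFCF, but these calls depended on the libraries included. With 1 liver removed, the HFCF call was kept in 9 of 12 fits for Serpina1e and in 6 of 12 for Serpina11, and the HF call in 4 of 12 for Serpina1e and in 12 of 12 for Serpina11.

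In females, no serpin was called between labelled knockouts and controls on any diet: 0 of 28 members on LF (0% of all genes), 0 of 28 on HF (0%) and 0 of 29 on HFCF (0.0534%). At an unadjusted p under 0.05 there were 1, 4 and 7 members, beside 355 of 14285, 1135 of 14128 and 1340 of 14980 among all genes tested. The DESeq2 Wald test called 1, 0 and 0 members. The edgeR count was also 0 in each of the 24 fits with 1 female liver removed. The 1 on LF was Serpinb1a, which inhibits neutrophil proteases. It measured 20.3, 24.9, 26.5 and 34.2 CPM in controls and 15.9, 14.3, 12.3 and 8.12 CPM in labelled knockouts, without overlap (-1.06 ± 0.21, edgeR adjusted p = 0.924). In the authors' deposited table its adjusted p was 0.0101. For Serpina7 the values were -0.54 ± 0.21 on HF and -0.61 ± 0.24 on HFCF (adjusted p = 0.605 and 0.547). Whether the labelled-knockout effect on serpins differed between the sexes was not tested.

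The HFCF diet, set against the HF diet in controls, went with lower levels of many secreted serpins, among them Serpina1a to Serpina1d and antithrombin in both sexes, and higher levels of Serpinh1, Serpinb6b, Serpinb6a and Serpine2. In the labelled knockouts Serpinh1 and Serpinb6a were higher too, Serpine2 was not called in either sex, and Serpinb6b was called in males only. C1 inhibitor was not called in controls of either sex, nor Serpina3k in control males. In control females 8 of 29 members were higher and 15 lower (23 in all, where 30.8% of all genes were called, 16.9% higher and 13.8% lower), with a median log2 fold change of -0.44 over the members and -0.02 over all genes. Serpina3k measured 1173, 2738, 1671 and 2737 CPM on HF and 476.5, 551, 1007 and 739 CPM on HFCF, without overlap (-1.57 ± 0.31, adjusted p = 0.00878). Serpina1c measured 302, 689.5, 585 and 762 CPM on HF and 189, 180, 326 and 193 CPM on HFCF, with overlap through HF replicate 1 and HFCF replicate 3 (-1.38 ± 0.29). Serpina1a measured 933, 1927, 1599 and 1542 CPM on HF and 654, 704, 887 and 677 CPM on HFCF, without overlap (-1.02 ± 0.20).
Serpina1d (-1.05 ± 0.25), Serpina3m (-0.99 ± 0.16), Serpina6 (-0.97 ± 0.26), Serpina1b (-0.87 ± 0.17), Serpinf2 (-0.70 ± 0.15), Serpinb8 (-0.65 ± 0.14), Serpind1 (-0.64 ± 0.10), Serpina11 (-0.62 ± 0.21), Serpinc1 (-0.50 ± 0.13), Serpina3n (-0.44 ± 0.11), Serpinf1 (-0.43 ± 0.14) and Serpina10 (-0.24 ± 0.07) were lower too.

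Against that trend, Serpinh1 measured 43.0, 14.1, 19.6 and 13.5 CPM in HF control females and 69.7, 71.7, 62.4 and 75.3 CPM on HFCF, without overlap (1.63 ± 0.33, adjusted p = 0.00932). Serpinb6b measured 3.23, 0.991, 1.31 and 1.47 CPM on HF and 6.32, 7.69, 6.49 and 7.95 CPM on HFCF (2.02 ± 0.33, adjusted p = 0.00561). The thyroxine carrier Serpina7 measured 73.0, 52.5, 49.4 and 35.5 CPM on HF and 90.3, 138, 77.2 and 126 CPM on HFCF (1.04 ± 0.24), and Serpina7 and Serpinb6b did not overlap between the diets.
Serpini1 (1.47 ± 0.43, from 0.433 to 1.21 CPM on average), Serpinb6a (0.99 ± 0.19), Serpina3g (0.96 ± 0.19), Serpine2 (0.92 ± 0.20) and Serpinb9 (0.61 ± 0.15) were higher. HF control replicate 1 was the HF liver nearest to the HFCF levels for Serpinh1, Serpinb6b and Serpina1a. Without it the call went to 27 members, and over the 8 fits that left out a library to 16 to 27.

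In control males the same diets gave 5 higher and 10 lower of 29 members, 15 in all, where 22.3% of all genes were called, 13% higher and 9.31% lower, with a median of 0.00 over the members and 0.01 over all genes. Serpina6 fell the most, from 223 to 371 CPM (median 275) on HF to 79.4 to 202 CPM (median 129) on HFCF, without overlap (-1.07 ± 0.18, adjusted p = 0.00174). Serpine2, which inhibits thrombin, had 5.03 to 6.42 CPM (median 5.81) on HF and 10.7 to 16.8 CPM (median 13.6) on HFCF, without overlap (1.28 ± 0.12, adjusted p = 3.33e-05). Serpinb6b had 3.41 to 8.42 CPM (median 5.47) and 9.24 to 19.9 CPM (median 14.4), also apart (1.37 ± 0.21).
Serpinh1 was higher by 0.85 ± 0.14, with 28.9 to 38.9 CPM (median 33.2) on HF and 37.6 to 74.7 CPM (median 61.0) on HFCF and a slight overlap. Serpinb6a (0.59 ± 0.14) and Serpinb9 (0.55 ± 0.14) completed the 5. Without HFCF control replicate 1 the call went to 17 members, these 15 among them. The other lower members were Serpina3m (-0.74 ± 0.11), Serpind1 (-0.62 ± 0.08), Serpinb8 (-0.59 ± 0.09), Serpina1d (-0.50 ± 0.15), Serpina1c (-0.47 ± 0.15), Serpina1b (-0.39 ± 0.10), Serpina1a (-0.38 ± 0.10), Serpinf2 (-0.35 ± 0.09) and Serpinc1 (-0.32 ± 0.10).

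**Figure D3:**
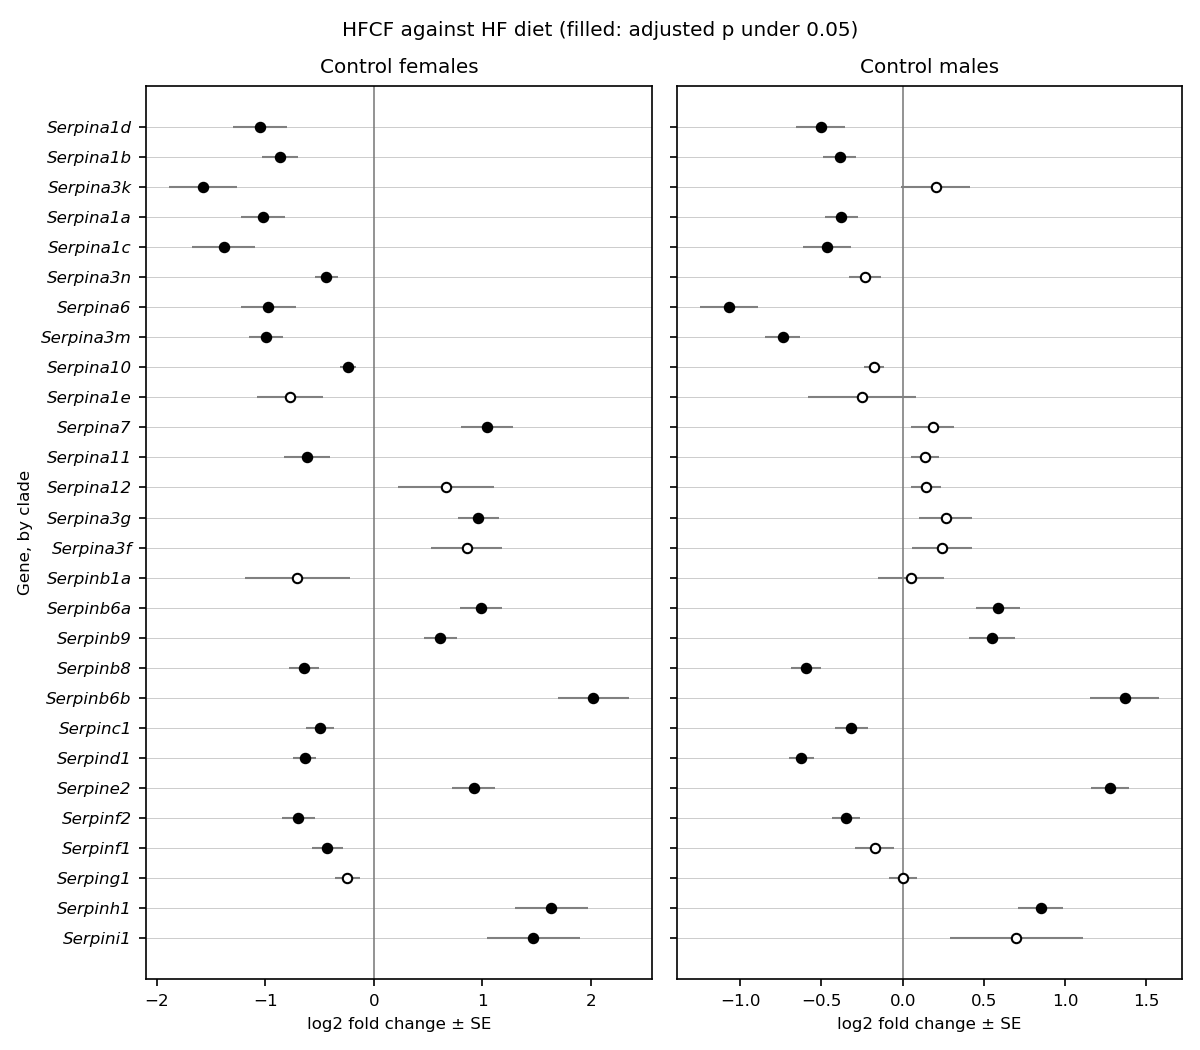
Log2 fold change (HFCF over HF, with its SE) of 28 serpin genes, where tested, in control females (4 livers per group) and control males (6 per group). Serpina3k lies at -1.57 in females and 0.20 in males, whereas Serpinb6b (2.02 and 1.37) and Serpinh1 (1.63 and 0.85) lie above 0 in both.

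In labelled-knockout males the diets differed for more members, 9 higher and 17 lower of 29 (26 in all, where 41.7% of all genes were called, 21.6% higher and 20% lower), with a median of -0.45 over the members and -0.02 over all genes. Serpina1e went from 93.1 to 1086 CPM (median 246) on HF to 23.4 to 65.6 CPM (median 42.9) on HFCF, without overlap (-3.02 ± 0.50, adjusted p = 0.000212). Without HF labelled-knockout replicate 6 the log2 fold change was -2.26, still called. Serpina6 (-1.46 ± 0.15), Serpina1c (-1.28 ± 0.14), Serpina3m (-1.01 ± 0.08), Serpina3k (-0.97 ± 0.20), Serpina1d (-0.91 ± 0.09) and Serpina1a (-0.86 ± 0.08) were also lower. Serpinb6b (2.04 ± 0.21), Serpini1 (1.28 ± 0.37), Serpina3f (1.06 ± 0.21) and Serpinh1 (0.73 ± 0.18) were higher. Antithrombin fell by 0.52 on the log2 scale (SE 0.07) and C1 inhibitor by 0.49 (SE 0.08).

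Labelled-knockout females had 5 higher and 3 lower of 29 members on HFCF, 8 in all, where 14.5% of all genes were called, 8.44% higher and 6.01% lower, with a median of -0.32 over the members and -0.01 over all genes. Serpinh1 measured 21.3, 28.4, 23.4 and 12.2 CPM on HF and 54.0, 63.3, 67.4 and 90.7 CPM on HFCF, without overlap (1.70 ± 0.24, adjusted p = 0.00356). Serpina3k measured 1501, 2061, 1388 and 2660 CPM on HF and 1305, 532, 939 and 577 CPM on HFCF, without overlap (-1.18 ± 0.30). Serpini1 (1.88 ± 0.39), Serpina12 (1.16 ± 0.34), Serpina7 (0.97 ± 0.24) and Serpinb6a (0.77 ± 0.17) were higher, and Serpina6 (-0.97 ± 0.27) and Serpina1b (-0.70 ± 0.21) lower.
Serpina12, vaspin, measured 17.2, 49.0, 15.6 and 35.2 CPM on HF and 46.1, 61.8, 73.1 and 76.9 CPM on HFCF, with overlap. The count again rested on single libraries. HFCF labelled-knockout replicate 1 had a hepatocyte marker sum of 111805 CPM, far above the other HFCF females. Without this liver 21 members were called, these 8 among them, and without any 1 of the other 3 HFCF livers 3 were. Without HF labelled-knockout replicates 1, 2, 3 and 4, each left out in turn, 4, 5, 7 and 5 were called. The share of all genes called in these fits is not given here, so a change in the count is not a result about serpins alone. These diet comparisons share their groups with the knockout and sex comparisons, so that their values are not independent of each other.

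Markers of several cell types moved with diet. Hepatocyte markers had 6 of 8 lower on HFCF in control females (sums of 89932 to 105484 CPM on HF and 54674 to 68016 on HFCF) and 5 of 8 lower in control males (61986 to 85486 and 38744 to 63402). Macrophage markers had 6 of 10 higher in both (304 to 536 and 795 to 956 CPM in females, 242 to 479 and 427 to 844 in males), and biliary markers 6 of 6 higher (43.6 to 278 and 308.5 to 552 CPM in females, 107 to 219 and 160 to 562 in males). Of the collagens and other partners of Serpinh1, 14 of 19 were higher in control females (median log2 fold change 1.57), 15 of 19 in labelled-knockout females (1.64), 16 of 19 in control males (0.77) and 17 of 19 in labelled-knockout males (1.21), with 1 lower in the last. In labelled-knockout males, hepatocyte markers had 7 of 8 lower on HFCF (89784 to 103997 CPM on HF and 53796 to 65241 on HFCF), blood markers 5 of 5 lower (164 to 815 and 175 to 251 CPM), macrophage markers 7 higher and 2 lower of 10 (364.5 to 539 and 614 to 1021 CPM) and biliary markers 6 of 6 higher (59.4 to 124 and 201 to 675 CPM). In labelled-knockout females hepatocyte markers had 0 of 8 called (98238 to 120067 and 62195 to 111805 CPM), macrophage markers 3 of 10 higher (349 to 846 and 699 to 950.5 CPM) and biliary markers 6 of 6 higher (65.9 to 84.4 and 249.5 to 559.5 CPM). Stellate markers had 5 of 8 higher in control males (408 to 593 and 446 to 820 CPM), 7 of 8 in labelled-knockout males (307 to 428 and 465 to 739 CPM), 6 of 7 tested in labelled-knockout females (240 to 364.5 and 509 to 761 CPM) and 1 of 8 in control females (217 to 664 and 608.5 to 929.5 CPM). Endothelial markers had 5 of 6 higher in control females (174 to 245 and 272 to 316 CPM), 2 in each labelled-knockout comparison and 1 in control males (210 to 319 CPM on HFCF). All markers in these lists had reads, and their part in the serpin differences was not tested.

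Between the HF and LF diets, fed to females, 0 of 28 members were called in controls (beside 0.696% of all genes). At an unadjusted p under 0.05 there were 7 members, beside 2314 of 14216 among all genes, and the Wald test called 2 members. In labelled knockouts 1 of 28 was called (0.155% of all genes, 0.0704% higher), Serpinb8, an intracellular inhibitor of furin. It measured 12.3, 9.49, 10.8 and 9.53 CPM on LF and 19.1, 26.8, 22 and 21.5 CPM on HF, without overlap (1.09 ± 0.14, adjusted p = 0.0182). In controls it measured 13.1, 13.3, 13.5 and 9.70 CPM on LF and 18.9, 17.3, 22.5 and 17.6 CPM on HF, also without overlap (0.63 ± 0.14, edgeR adjusted p = 0.0755). In the authors' deposited table the adjusted p of Serpinb8 in controls was 0.00622. The call in labelled knockouts was absent without any 1 of 4 of the 8 libraries (LF replicates 2 and 4, HF replicates 1 and 2), and without LF replicate 1 the number of members called was 5.

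Sex was compared in controls, where the labels do not say whether males and females were raised or sequenced together, so that sex and cohort cannot be told apart. On HF, 5 of 29 members were higher in males and 11 lower, 16 in all, where 18.1% of all genes were called, 8.52% higher and 9.58% lower, with a median of -0.19 over the members and 0.00 over all genes. On HFCF, 5 were higher and 2 lower, 7 in all, where 2.63% of all genes were called, 1.30% higher and 1.34% lower, with medians of 0.01 and 0.00. On HF, hepatocyte marker sums were 61986 to 85486 CPM in males and 89932 to 105484 CPM in females, without overlap, with 1 of 8 markers lower in males (median log2 difference -0.35), and 3 of 6 endothelial markers were higher in males (222 to 321 and 174 to 245 CPM). Their part in the serpin differences was not tested. The members called on HFCF are Serpina1e, Serpina3k, Serpinb6b, Serpina12, Serpina7, Serpinb1a and Serpina6, and all but Serpina3k were called on HF in the same direction.

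**Figure D4:**
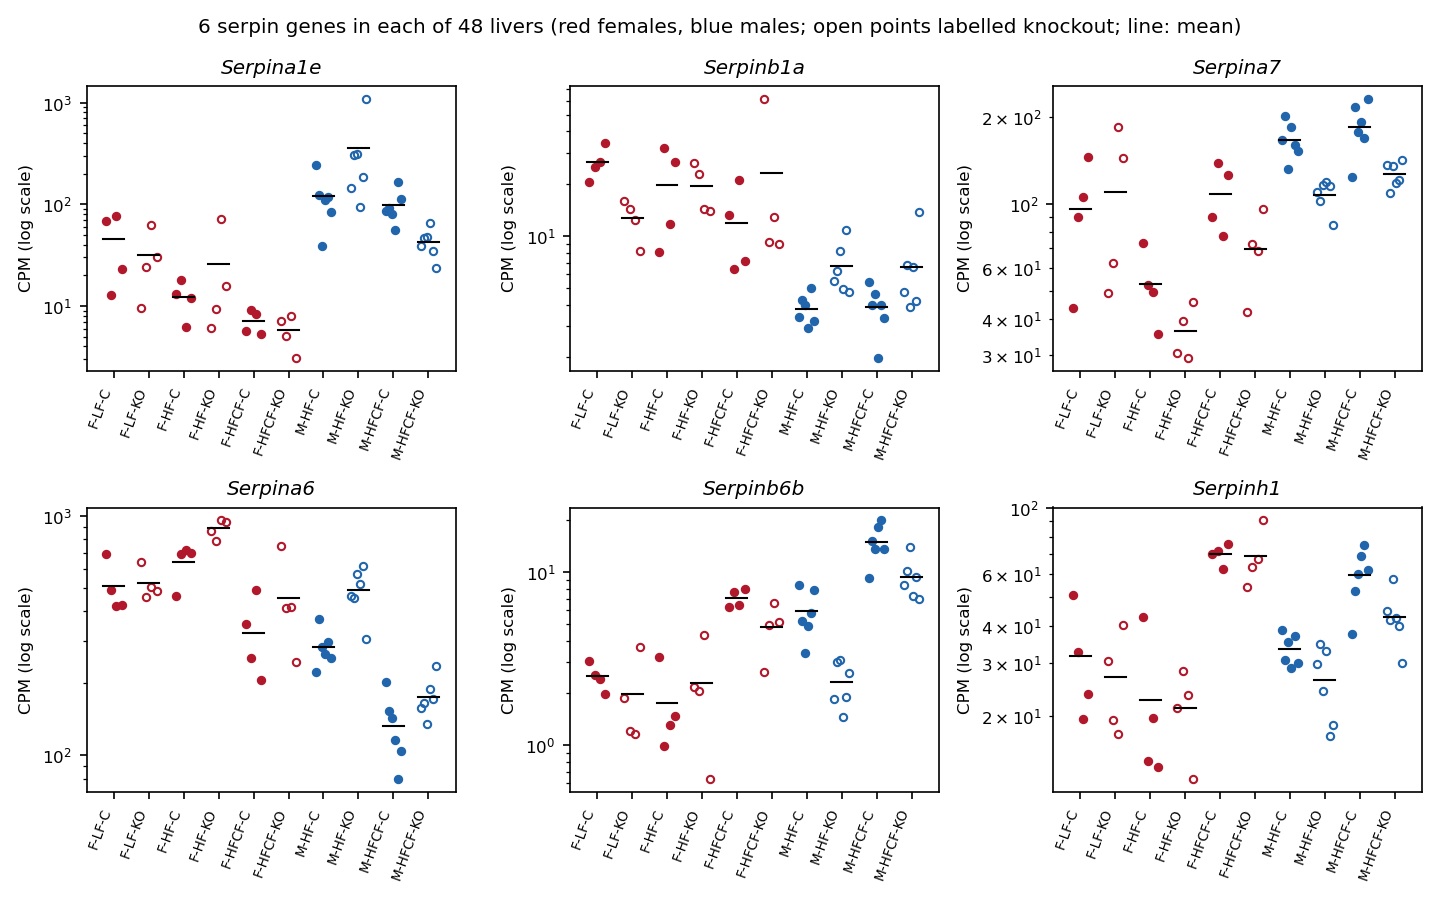
Level (CPM, log axis) of 6 serpin genes in each of the 48 livers by group, females in red and males in blue, labelled knockouts as open and controls as filled points, with the group mean as a line. In controls on HF and HFCF, Serpina1e is higher and Serpinb1a lower in males, while Serpina1e in HFCF labelled-knockout males (mean 42.9 CPM) lies near LF control females (45.2 CPM). The Serpinh1 mean is higher on HFCF than on HF in each sex and genotype.

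Serpina1e showed the greatest sex difference. HF control males had 38.7 to 244 CPM (median 114) and HF control females 13.03, 18.02, 6.16 and 11.9 CPM, without overlap (3.28 ± 0.46, adjusted p = 0.000978). On HFCF the males had 55.9 to 166 CPM (median 88.4) and the females 5.72, 9.11, 8.34 and 5.33 CPM, a 14-fold difference (log2 3.80 ± 0.31, adjusted p = 2.25e-05). As a share of the Serpina1a to Serpina1e sum, Serpina1e made up 1.96% in HF control males, 3.78% in HF labelled-knockout males (1.22% to 10.9% per liver), 2.28% and 0.936% in HFCF control and labelled-knockout males, and 0.103% to 0.457% in the female groups. The single copies share sequence, as shown above, so that reads counted to Serpina1e may include some from its neighbours.

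Serpinb1a was lower in males. It had 2.93 to 4.99 CPM (median 3.69) in HF control males and 8.02, 32.3, 11.7 and 26.6 CPM in HF control females, without overlap (-2.37 ± 0.34, adjusted p = 0.00100). On HFCF the male range was 1.98 to 5.38 CPM (median 3.99) and the female values were 13.1, 6.43, 21.0 and 7.14 CPM (-1.60 ± 0.33). Neutrophil markers had 0 of 2 called on HF, with sums of 2.49 to 4.27 CPM in males and 0.490 to 3.75 CPM in females and a median of 0 CPM for Ly6g, a defining granulocyte marker, over all livers. Their part in this difference was not tested.
Serpina6 was also lower in males, with 223 to 371 CPM (median 275) against 462, 694.5, 720.5 and 704 CPM on HF (-1.20 ± 0.15, adjusted p = 0.000398) and 79.4 to 202 CPM (median 129) against 353, 255, 490.0 and 207 CPM on HFCF (-1.28 ± 0.26). Both pairs of groups were apart.

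Serpina7, which is X-linked, was higher in HF males (132 to 201 CPM, median 163) than in HF females (73.0, 52.5, 49.4 and 35.5 CPM), without overlap (1.65 ± 0.18, adjusted p = 0.00014). On HFCF the groups overlapped and the log2 difference was 0.79 ± 0.19 (adjusted p = 0.0496). Serpinb6b was higher in males on both diets (1.74 ± 0.34 and 1.09 ± 0.19), without overlap, and Serpina12 too (1.33 ± 0.36 with overlap on HF through female replicate 1 at 70.1 CPM, and 0.81 ± 0.13 without overlap on HFCF).
Serpina3k was called on HFCF and not on HF, with 1349 to 3963 CPM (median 1992) in males and 476.5, 551, 1007 and 739 CPM in females (1.68 ± 0.30, adjusted p = 0.00993). The other members called on HF were Serpina3g (0.81 ± 0.20), Serpina3m (-0.79 ± 0.12), Serpina1d (-0.62 ± 0.17), Serpina11 (-0.60 ± 0.17), Serpina1a (-0.56 ± 0.17), Serpinb8 (-0.49 ± 0.08), Serpinc1 (-0.48 ± 0.10), Serpinf2 (-0.45 ± 0.13), Serpina1b (-0.41 ± 0.12) and Serpind1 (-0.31 ± 0.08).

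**Figure D5:**
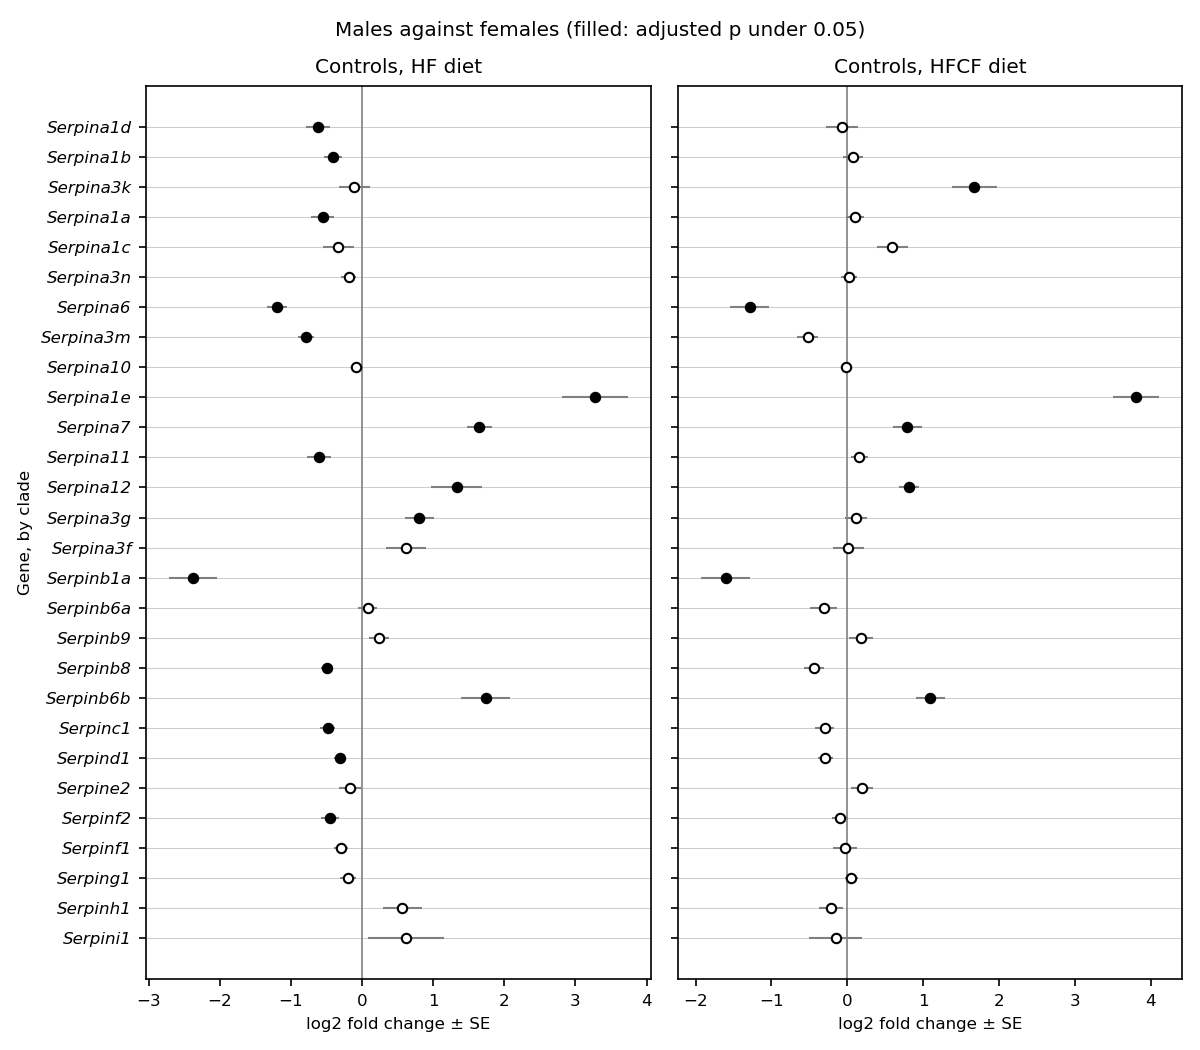
Log2 difference (male over female controls, with its SE) of 28 serpin genes on HF and HFCF, 6 male and 4 female livers per group. Serpina1e lies at 3.28 and 3.80 and Serpinb1a at -2.37 and -1.60.

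The sex counts, given here without the share of all genes called in each fit, depended on single livers. On HF the call went to 10 members without control male replicate 1, to 8 without control female replicate 2 or replicate 4, and to 22 without control female replicate 1. On HFCF it went to 10 without control male replicate 1, to 4 without control male replicate 6 and 3 without control female replicate 1. Whether the diet difference itself differed between the sexes was tested as an interaction in controls. It was called for 0 of 29 members, beside 0.00646% of all genes. At an unadjusted p under 0.05 there were 9 members, beside 2561 of 15491 among all genes, and the Wald test called 1 member. Serpina3k had the smallest p (1.79 ± 0.39, adjusted p = 0.126). Without HF control female replicate 1 the count was 8, and so it was without that liver and HFCF control male replicate 1 together, an alternative chosen after seeing the data.

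Genes related to the serpins were counted from the same fits, in which 8.57% of all genes were higher and 9.88% lower in HF labelled-knockout males. Of proteases that serpins inhibit and their partners, 11 of 33 tested were higher and 5 lower in HF labelled-knockout males, including F7, coagulation factor VII (0.80), Plat (-0.91) and Plau (-0.74), the plasminogen activators, and Prss8, prostasin (-1.31). Of these proteases, 9 were higher and 16 lower of 33 on HFCF in control females, 7 and 12 in control males, and 7 and 16 in labelled-knockout males, where 16.9% and 13.8%, 13% and 9.31%, and 21.6% and 20% of all genes were higher and lower. Other inhibitors of plasma and tissue had 9 of 22 higher and 2 lower in HF labelled-knockout males, among them Itih3 (0.66), Itih4 (0.65), Mug1 (0.64) and the metalloprotease inhibitor Timp1 (-2.13).
Genes of secretory quality control, which fold and move secreted proteins, had 4 of 22 called in HF labelled-knockout males, all higher, where 18.5% of all genes were called, so that this share is near that of all genes. On HFCF 15 of 22 were lower in labelled-knockout males, where 20% of all genes were. Of transcription factors known to act on liver serpin genes, 2 of 17 were called in HF labelled-knockout males, Stat3 (0.32) and Cebpa (0.21), both higher, which is not above the 18.5% called among all genes. In the sex comparison on HF, 1 of 18 was higher and 3 lower in males (8.52% and 9.58% of all genes), with Cux2, a factor of female liver, at -6.95.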

How the data were processed

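The authors deposited raw, unnormalized read counts per gene for each library, per the file headers, in 11 tables of 1 comparison each. The submitters' processing notes name STAR 2.6.1, HTSeq 0.6.1, DESeq2 and the builds GRCm38 and mm10 without their order or role. Libraries were not strand specific, with inserts of 250 to 300 bp, per the labels' protocols. Read length and the handling of reads that match several genes are not given in the sources used here. The deposited gene lengths in bases served to express levels per kb. The tables also give log2 fold changes and p-values computed by the authors, which were used only where named, and the authors' deposited normalised signal values were not used. A total of 0 columns lacked a sample.

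The tables were joined by gene identifier, since 0 of 1341082 repeated values differed, and gave 29221 genes in 48 libraries; a gene missing from a table was set to 0 there. CPM used TMM factors from edgeR 4.0.16 (R 4.3.3). Each of 13 pairwise comparisons and 2 interactions was fitted on its own groups with filterByExpr and edgeR's quasi-likelihood test, with Benjamini-Hochberg adjustment across every gene of the fit. Calls have an adjusted p under 0.05. Alternatives were DESeq2 1.42.0 size factors and Wald test, no filter on low counts, the replicate number as a block, and leaving out each library in turn. Counts of members under an alternative come without the share of all genes called there. Depth was 15338239 to 22072884 reads on genes per library. The SEs were obtained from each log2 value and its F statistic, and they reflect the spread between these mice. The fitting script was tested on simulated counts.

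Members given with values per liver are those called in a pairwise comparison with log2 values at least 1 away from 0 and a mean of at least 1 CPM in a group, and the member with the highest level per kb in each clade. Some further members appear where a result turns on them, and 1 tested member, which stays in the counts, medians and sums, is not reported here. The members, the gene lists and these rules were chosen with earlier results of these data known. Reactive loops were found by a translated search for the hinge in GENCODE M21 transcripts, and the coordinates of 50 of 50 members in the tables equal that annotation. Promoter windows are RefSeq's.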

Additional observations from a re-analysis of the deposited data

Results flagged for a closer look

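In 22 of the 200 sets of 1 named gene and 1 group, the highest or lowest liver lay beyond Dixon's 95% limit; chance flags about 1 in 20. HFCF labelled-knockout female replicate 1 was the highest of its group for Serpinb1a (61.5 CPM, next 12.9), Serpinc1 (2791, next 1815), Serping1 (992, next 656) and Serpina3m (541, next 291). HFCF control male replicate 1 was the highest for Serpina1c (503 CPM, next 325), Serpina1d (1581, next 973) and Serpina3k (3963, next 2239). HF labelled-knockout male replicate 6 was the highest for Serpina1e (1086 CPM, next 311), Serpina3k (6306, next 3207) and Serpine2 (19.7, next 8.59).

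HF control female replicate 1 was the highest for Serpina12 (70.1 CPM, next 22.2) and Serpini1 (0.865, next 0.311) and the lowest for Serpina6 (462, next 694.5). HFCF labelled-knockout male replicate 6 was the lowest for Serpina12 (62.9 CPM, next 81.7) and the highest for Serpinb1a (13.6, next 6.82). In LF control females, Serpina1d was lowest in replicate 3 (2567 CPM, next 3182), Serpina3f highest and Serpinf2 lowest in replicate 2 (7.91 and 876 CPM, next 3.95 and 994), and Serpinb8 lowest in replicate 4 (9.70, next 13.1). The remaining livers were HFCF control female replicate 3 for Serpina1c (326 CPM, next 193), HF labelled-knockout female replicate 3 for Serpina1e (72.4, next 15.8) and HF control male replicate 2 for Serpina3m (351, next 289).

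By the interaction test in males, some members were called for a different labelled-knockout effect on the 2 diets (edgeR, adjusted p under 0.05). They were Serpina1e (-2.78 on the log2 scale), Serpina11 (-0.99), Serpina1c (-0.82), Serping1 (-0.50) and Serpinf2 (-0.45), each more negative on HFCF. With 1 library removed, Serpina11 and Serpina1e kept the call in 24 of 24 fits. Serping1 kept it in 17, Serpinf2 in 12 and Serpina1c in 6. With the replicate number as a block, the calls of Serpina1e, Serpina1c and Serpinf2 were lost.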

How the results depend on the processing

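Counts of called serpins moved by over 1.5 times in these cases, and no value changed its direction. With the DESeq2 Wald test the counts were 1 for the labelled knockout in LF females, 2 for HF against LF in control females, 5 for HF against LF and 17 for HFCF against HF in labelled-knockout females, 8 for the difference between diets in the male labelled-knockout effect, and 1 for the difference between sexes in the diet effect. Without a filter on low counts, HF against LF in labelled-knockout females gave 3 and the difference between diets 3. Leaving out 1 library gave these ranges: 1 to 12 for the labelled knockout in HFCF males, 0 to 5 for HF against LF and 3 to 21 for HFCF against HF in labelled-knockout females, 8 to 22 for sex on HF, 3 to 10 for sex on HFCF, 2 to 7 for the difference between diets and 0 to 8 for the difference between sexes; leaving out the 2 libraries together gave 8 for the last. In HF labelled-knockout males the range was 18 to 21. For single named members, 95 of 96 calls were kept with the Wald test, 94 of 96 with DESeq2 size factors and 94 of 96 without the filter.

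Same-numbered livers did not deviate together throughout: correlations of their deviations ran from -0.29 to 0.46, and in none of the 13 comparisons were all over 0.1. This check did not show a pairing by number and cannot exclude it. With the replicate number as a block, the counts were 0 for the labelled knockout in HFCF males, 0 for HF against LF in labelled-knockout females, 0 for HFCF against HF in control females and 2 for the difference between diets; of the named members' calls, 49 were kept and 27 lost. The difference between diets for Serpina1e was among those lost. HFCF and HF control females had 3 replicate numbers in common, so that the block fit there compared the diets within 3 pairs only. The cause of these moves was not tested.

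Depth did not allow tests of the 21 rarest members, and Serpini1, at 0.338 to 1.29 CPM, was near that limit.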

Other observations

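The pseudogene Serpina4-ps1, no member of the set described because of its biotype, varied widely. It measured 16.6 ± 16.7 CPM (SD, n = 6; 4.25 to 43.3) in HFCF control males and 0.425 CPM on average (0.213 to 0.687) in HFCF labelled-knockout males. It was chosen after its values were seen.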
